A study of Mus musculus with 7 samples.

Results

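The immediate early genes Fos, Fosb, Jun, Junb, Egr1, Egr2, Atf3, Ier2, Nr4a1 and Dusp1 were followed, library by library, in mouse uterus after CXCL12 had been infused into the uterine cavity. These 10 genes were taken by their symbols, and all 10 are listed in each deposited table, which holds 23282 rows. Their transcripts were counted with the QuantSeq 3′ mRNA method, in which reads are primed from the poly(A) tail and fall near the 3′ end of a transcript. The question was how the uterus responds to CXCL12, a chemokine that pre-implantation embryos secrete and that signals through CXCR4 and CXCR7. The animals were 6-week-old C57BL/6 females, and no allele or transgene is named for them. Each female was anaesthetised with tribromoethanol and the uterus was exposed through an abdominal incision, so that both treatments share the operation. Recombinant human CXCL12 in saline was infused into one horn, and saline alone into the opposite horn. The saline group has 2 libraries, for which the labels give no day, the CXCL12 Day 3 group has 2 and the CXCL12 Day 8 group has 3. Nothing in the labels says whether the libraries of a group came from separate animals, so the p-values below measure the spread between these samples, which may be technical.

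Immediate early genes are transcribed within minutes of a stimulus, without new protein synthesis, because the factors that bind their promoters (SRF with its ELK partners, and CREB) are already present and are switched on by phosphorylation. Fos and Jun proteins pair to form the transcription factor AP-1, Egr and Nr4a proteins bind DNA of their own accord, and Dusp1 is a phosphatase that turns off the MAP kinases which started the response. Their transcripts are short-lived, and growth factors, hormones and cell stress are all known to raise them. In the uterus, oestrogen is a classical inducer of Fos and Jun.

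The 6 libraries deposited as counts held 6908790 and 9491691 counts (saline replicates 1 and 2), 9968909 (Day 3 replicate 2), and 9601312, 12308982 and 9941132 (Day 8 replicates 1, 2 and 3). Day 3 replicate 1 was deposited as log2 values of normalized counts, so its depth was estimated at 10463116 reads. The label of Day 8 replicate 1 places it at Day 8, whereas the name of its table carries Day 3. It was placed by its label, and fits of the immediate early genes at Day 8 are given without it as well. For the genes of the other lists, the Day 8 fits given below include it. Levels are given as CPM, a gene's reads relative to all reads of its library, after scaling by TMM factors, which ranged from 0.893 to 1.18 and were computed over the 7 libraries. A gene with 3 counts, taken as the floor of detection, has between 0.248 and 0.368 CPM, and this covers counting error alone. All 8 uterus markers examined (Hoxa10, Hoxa11, Hand2, Esr1, Pgr, Msx1, Wnt7a and Foxa2) were above 0 in every library, with a summed level between 946 and 1660 CPM.

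RefSeq promoter sequence (GRCm38.p6) was at hand for 8 of the 10 genes, all but Ier2 and Egr1. The promoters of Fos, Fosb, Junb and Dusp1 are shown because these 4 genes were called higher at Day 8 when Day 8 replicate 1 was left out, as described below. Each run is the 250 bases before the transcription start, and capitals mark TGACG on either strand, the core of the cAMP response element to which CREB and ATF proteins bind.
Fos: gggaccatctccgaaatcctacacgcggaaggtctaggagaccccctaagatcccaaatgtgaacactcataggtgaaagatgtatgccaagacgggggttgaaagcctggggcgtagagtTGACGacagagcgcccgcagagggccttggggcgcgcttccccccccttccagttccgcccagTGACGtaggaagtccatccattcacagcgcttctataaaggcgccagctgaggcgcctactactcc
Fosb: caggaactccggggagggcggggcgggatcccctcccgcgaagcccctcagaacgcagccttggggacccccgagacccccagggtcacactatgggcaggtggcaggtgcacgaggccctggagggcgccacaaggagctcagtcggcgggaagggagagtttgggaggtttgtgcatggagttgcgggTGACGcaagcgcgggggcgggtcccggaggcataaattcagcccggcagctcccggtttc
Junb: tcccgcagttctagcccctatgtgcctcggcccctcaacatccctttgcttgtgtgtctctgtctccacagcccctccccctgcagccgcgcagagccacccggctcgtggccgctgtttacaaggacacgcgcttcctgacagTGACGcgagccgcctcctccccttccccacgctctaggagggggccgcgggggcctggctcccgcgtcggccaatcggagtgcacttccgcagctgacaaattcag
Dusp1: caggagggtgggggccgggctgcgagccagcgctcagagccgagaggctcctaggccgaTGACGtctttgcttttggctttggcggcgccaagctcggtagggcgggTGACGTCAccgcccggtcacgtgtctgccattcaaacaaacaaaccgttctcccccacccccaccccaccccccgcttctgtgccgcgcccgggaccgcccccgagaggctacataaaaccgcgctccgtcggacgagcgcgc
The Fos window is chr12:85473640-85473889 on the plus strand, the Fosb window chr7:19310046-19310295 on the minus strand, the Junb window chr8:84978749-84978998 on the minus strand, and the Dusp1 window chr17:26508473-26508722 on the minus strand. In the Fos window, TGACG lies at -129 to -125 and again at -66 to -62, counted back from the start, and a TATAAA follows at -33 to -28. In the Dusp1 window the complete palindrome TGACGTCA lies at -143 to -136, with a further TGACG at -191 to -187. TGACG was present in a window of 7 of the 8 genes (for Egr2, in 3 of its 5 windows), the exception being Jun, and in 17.8% of all 32851 RefSeq windows of this length. The whole TGACGTCA was present in 1.55% of all windows, and TATAAA in 12.4%. The CArG box, the SRF site, was found in 4 of the 5 windows of Egr2, which has several starts (1.47% of all windows), the EGR site GCGNGGGCG in those of Fosb and Nr4a1 (4.70%), CCAAT in those of Jun and Junb and in 3 of the 5 of Egr2 (33.9%), and the AP-1 site TGANTCA in none of the 8 genes (6.75%). The Egr2 windows that start at 67537619, 67537620 and 67537680 overlap and hold the same TGACG, CArG and CCAAT sites. The Egr2 tallies therefore count the same sites more than once. Both strands were read for every motif, the TGACG counts include those within TGACGTCA, and a match describes the letters only.

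Fos, the partner of Jun in AP-1 and the classical marker of acute stimulation, had 5.89 and 7.72 CPM in the saline libraries, 8.38 and 9.83 at Day 3, and 2.45, 26.0 and 35.5 in Day 8 replicates 1, 2 and 3. These levels rest on 48 and 80 counts in saline, 95 in Day 3 replicate 2, and 21, 315 and 343 at Day 8. The counting intervals (exact Poisson, 95%) of Day 8 replicate 1 (1.52 to 3.74 CPM) and replicate 2 (23.2 to 29.0 CPM) were far apart. The 3 Day 8 libraries thus included the lowest and the 2 highest of all 7, a 14.5-fold range within the group, against 1.31-fold within saline and 1.17-fold within Day 3. Fosb, a close relative of Fos, was measured at 1.23 and 0.579 CPM in saline, 0.619 and 0.724 at Day 3, and 0.583, 2.72 and 4.04 at Day 8. Day 8 replicates 2 and 3, with 33 and 39 counts, were above the other libraries, and the remaining count libraries had between 5 and 10 counts.

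Jun, the central AP-1 subunit, had 167 and 72.7 CPM in saline, 56.9 and 65.8 at Day 3, and 78.7, 169 and 186 at Day 8. Saline replicate 1 lay with the 2 high Day 8 libraries, while saline replicate 2 and Day 8 replicate 1 lay just above the Day 3 libraries. Under quantile normalization, saline replicate 1 took second place for Jun. Junb, which forms AP-1 with weaker activity than Jun, had 29.8 and 20.8 CPM in saline, 33.0 and 31.1 at Day 3, and 25.8, 43.7 and 57.3 at Day 8. Its 2 highest values were again Day 8 replicates 2 and 3, and Day 8 replicate 1 lay between the saline values.

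Egr1, a zinc finger factor induced by growth factors and oestrogen, had 40.2 and 22.4 CPM in saline, 16.9 and 21.3 at Day 3, and 12.0, 60.2 and 53.9 at Day 8. As with Fos, the Day 8 group held both ends of the order, with a 5.01-fold range. Egr2, of the same family, was sparsely counted, at 1.47 and 2.03 CPM in saline, 1.53 and 0.828 at Day 3, and 0.467, 2.48 and 1.55 at Day 8. These values rest on 4 to 30 counts per count library, and all groups overlapped. Nr4a1, an orphan nuclear receptor also called Nur77, had 0.736 and 4.92 CPM in saline, 2.46 and 4.14 at Day 3, and 3.15, 7.43 and 5.18 at Day 8. The saline libraries differed 6.69-fold for Nr4a1, the lower of them resting on 6 counts, which was more than the 2.36-fold range within Day 8.

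Atf3, a stress-induced repressor of the ATF/CREB family, had 9.81 and 4.25 CPM in saline, 2.05 and 3.31 at Day 3, and 3.27, 5.86 and 6.42 at Day 8. It was highest in saline replicate 1, and the Day 3 libraries lay below both saline libraries. Ier2, a small nuclear protein of the immediate early response, had 6.50 and 16.6 CPM in saline, 15.9 and 20 at Day 3, and 17.8, 22.6 and 24.4 at Day 8. All 3 Day 8 libraries lay above both saline libraries, by a narrow margin between saline replicate 2 and Day 8 replicate 1 that was lost when counts were scaled by their totals alone. Dusp1, the phosphatase that inactivates p38, JNK and ERK, had 26.5 and 16.4 CPM in saline, 15.0 and 18.8 at Day 3, and 12.7, 54.6 and 44.8 at Day 8. Day 8 replicate 1 was the lowest of the 7 libraries for Dusp1, and Day 8 replicates 2 and 3 were the highest. Day 8 replicate 1 also stood apart in its most counted gene, Rn45s. That gene took 13% of its counts, against 9.36% to 10.4% in the other libraries. The part of this difference in the levels of the immediate early genes was not tested.

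**Figure D1:**
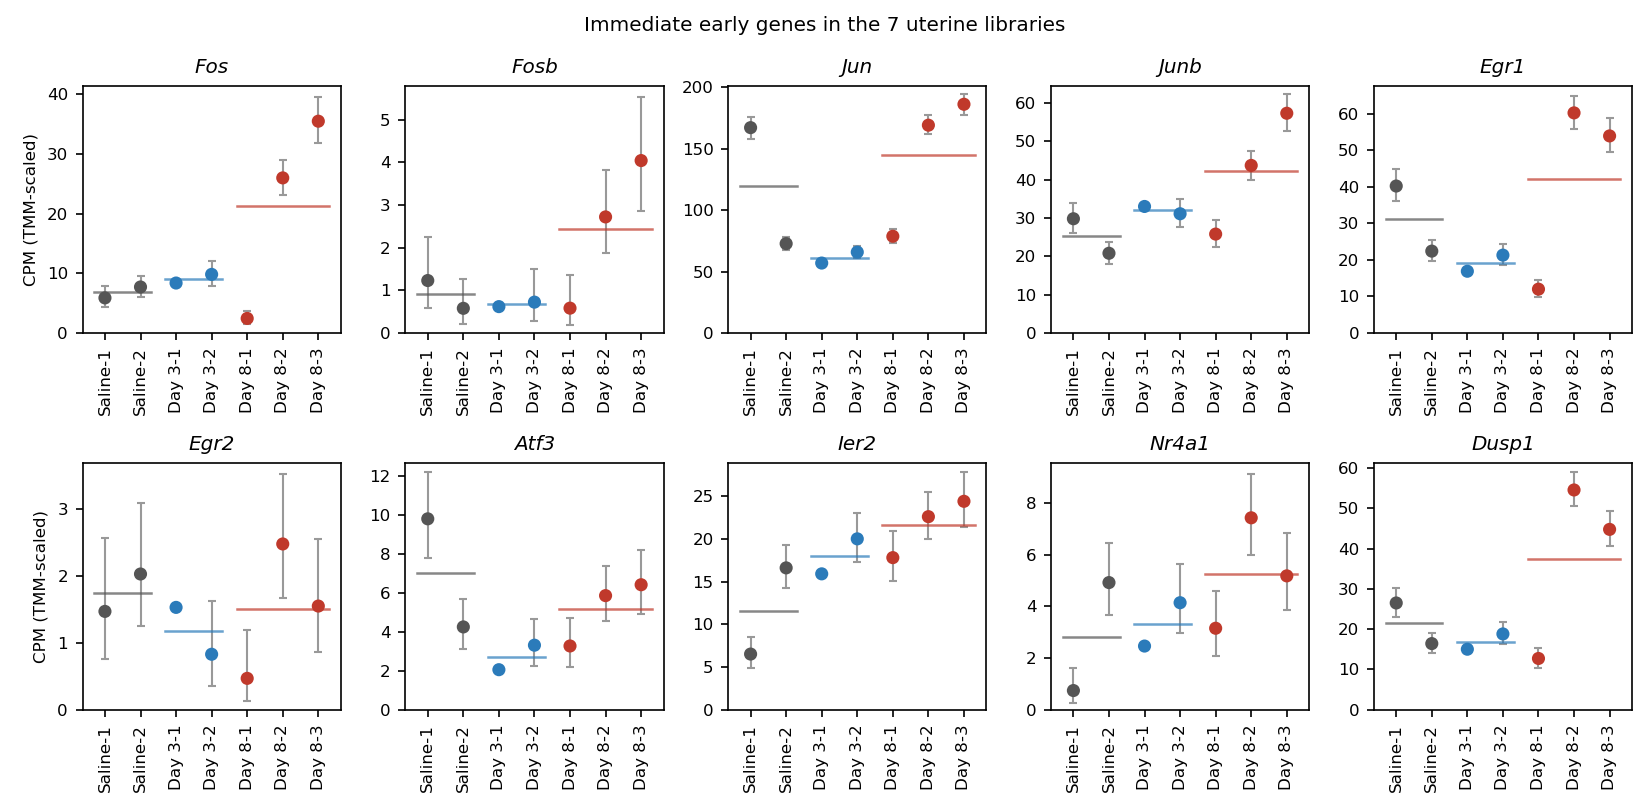
Level of each immediate early gene in the 7 libraries (vertical axis, TMM-scaled CPM from 0, with its own range in each panel; horizontal axis, library as group and replicate). Points are libraries, coloured by group, horizontal lines are group means and bars are exact Poisson 95% intervals of the counts (none for Day 3 replicate 1, deposited as log2 values). Day 8 replicates 2 and 3 stand above the others for Fos (26.0 and 35.5 CPM) and Dusp1 (54.6 and 44.8 CPM), while Day 8 replicate 1 is at 2.45 and 12.7 CPM.

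Seen across the 10 genes, Day 8 replicates 2 and 3 held the 2 highest values for 8 genes, all but Egr2 and Atf3, where 11.7% of the 16540 expressed genes showed that order. The count was 7 genes, without Jun, on quantile-normalized values (10.6% of genes), and 6 genes, without Jun and Nr4a1, when counts were scaled by their totals alone (8.89%). Day 8 replicate 1 was the lowest library for 4 genes (Fos, Egr1, Egr2 and Dusp1), against 14.7% of all genes, and saline replicate 1 was the highest for Atf3 alone, against 24.9%. The median of the 10 genes, each centred on its own mean over the 7 libraries on the log2 scale, was 0.89 and 0.83 in Day 8 replicates 2 and 3 and -0.58 in Day 8 replicate 1. It lay between -0.44 and 0.00 in the saline and Day 3 libraries. The genes differed in how closely they followed the others. The correlation of a gene with the mean of the other 9 over the 7 libraries was 0.951 for Dusp1, 0.915 for Fosb, 0.912 for Fos and 0.879 for Egr1, and it was 0.367 for Atf3, 0.326 for Ier2 and 0.262 for Nr4a1. These values are descriptions, because the points share their libraries and the high values come from the same pair of libraries.

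CXCL12 Day 8 was first compared with saline. Of the 10 genes, 8 had a positive log2 fold change, yet none passed the call of a fold change of at least 2 with an unadjusted P below 0.05, a call that 2.94% of the 15388 tested genes passed (edgeR quasi-likelihood test). Their median log2 fold change was 0.77, against -0.01 for all tested genes, and it ranged from 0.486 (without Day 8 replicate 2) to 1.01 (without Day 8 replicate 1) when 1 library was left out. In this edgeR fit the largest differences were those of Fos (log2 fold change 1.65 ± 0.94 SE, adjusted p = 0.956) and Fosb (1.45 ± 0.97, adjusted p = 0.956). The means of Fos were 21.3 ± 17.0 CPM at Day 8 (SD, n = 3) and 6.8 ± 1.3 in saline (SD, n = 2), so the spread within Day 8 was larger than the difference between the groups. Dusp1 differed by 0.81 ± 0.60, Junb by 0.74 ± 0.40, Nr4a1 by 0.88 ± 0.81, Egr1 by 0.43 ± 0.65 and Jun by 0.27 ± 0.49 on the log2 scale. Ier2, at 0.90 ± 0.45, was the gene whose groups did not overlap, which held for 19.1% of all genes. Egr2 and Atf3 had negative values of -0.21 ± 0.84 and -0.43 ± 0.54. Across all genes, 0% passed an adjusted p of 0.1 in this comparison, where 453 passed the fold change and the unadjusted P, and DESeq2 passed 49 genes at that adjusted p, none of them among the 10.

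The values at Day 8 moved with the library left out. Without Day 8 replicate 3, Fos was 1.07 ± 0.93 and Fosb 0.90 ± 1.11, and 229 of 15289 tested genes were called. Without Day 8 replicate 2, Fos was 1.48 ± 1.00 and Fosb 1.37 ± 1.15, and 475 of 15212 tested genes were called. No gene of the 10 was called in either case. With all libraries, DESeq2 called Fos (1.66 ± 0.84, adjusted p = 1). With limma on quantile-normalized values Fos was 1.04 ± 0.95, without a call, and the largest value was that of Nr4a1 (1.47 ± 0.78). Without Day 8 replicate 1, 4 of the 10 genes were called, each of them higher at Day 8, where 3.44% of all tested genes were called higher. They were Fos (log2 fold change 2.17 ± 0.36, edgeR adjusted p = 0.219), Fosb (1.91 ± 0.75, adjusted p = 0.53), Dusp1 (1.22 ± 0.35, adjusted p = 0.431) and Junb, which at 1.00 ± 0.33 just reached the fold change (adjusted p = 0.465). Egr1, at 0.87 ± 0.36, and Jun, at 0.57 ± 0.43, were not called. Counting Day 8 replicate 1 with Day 3, as the name of its table has it, also called 4 genes, where 3.58% of genes were called higher. These were Fos, Fosb, Dusp1 and Ier2, of which Ier2 stood at the limit, with a log2 fold change of 1.02 and an edgeR P that rounds to 0.05 (adjusted p = 0.437). Junb, at 0.997, fell just short of the fold change. For Ier2 and Nr4a1 the outcome rested on which saline library was kept. Without saline replicate 2, Ier2 (1.74 ± 0.39, edgeR adjusted p = 0.235) and Nr4a1 (2.83 ± 0.87, adjusted p = 0.298) were the 2 genes called, with 6.56% of all genes called higher, and the value for Jun turned to -0.20. Without saline replicate 1, Ier2 was 0.38 ± 0.34 and Nr4a1 0.10 ± 0.65. Each of these fits has 1 saline library, which was assumed to vary like the libraries of the other groups.

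**Figure D2:**
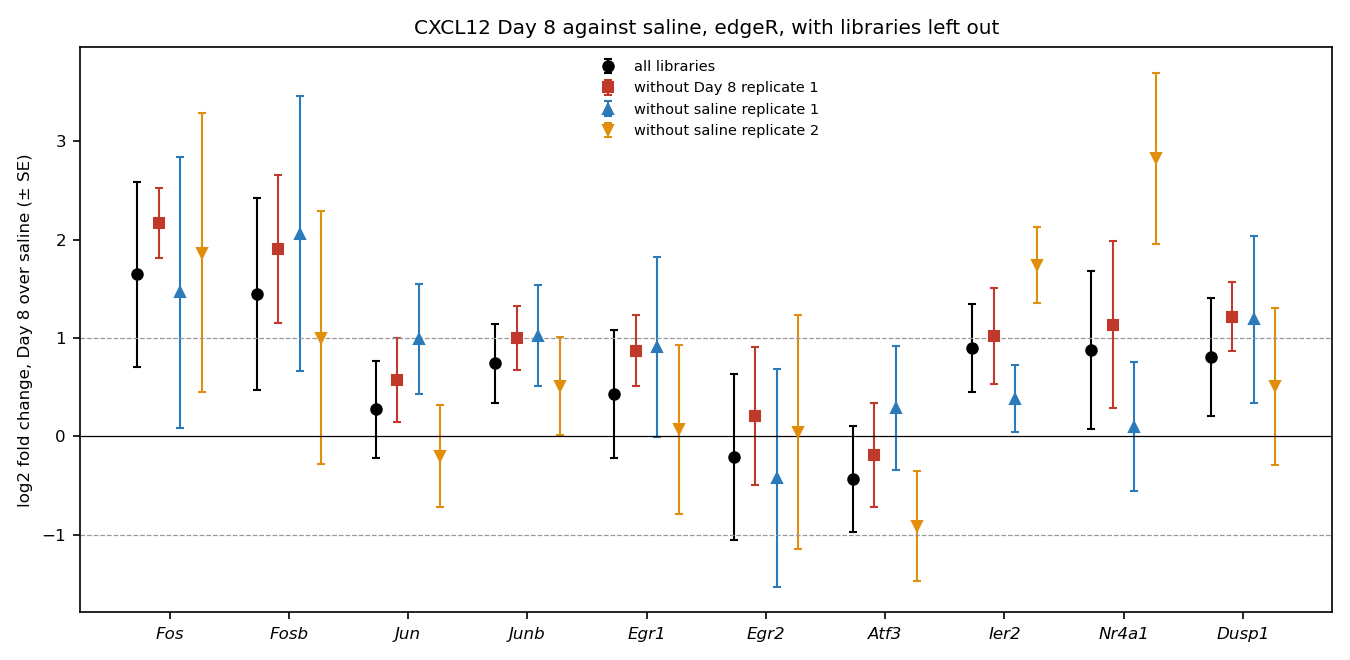
Log2 fold change of each immediate early gene at CXCL12 Day 8 over saline (vertical axis, edgeR, bars are ± 1 SE) with all libraries and with Day 8 replicate 1, saline replicate 1 or saline replicate 2 left out. Dashed lines mark a fold change of 2 in either direction. The value for Fos is 1.65 with all libraries and 2.17 without Day 8 replicate 1, with a narrower error.

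Day 3 was then compared with saline. None of the 10 genes was called, where 4.75% of the 16540 tested genes were called (limma on quantile-normalized log2 values), and 0% passed an adjusted p of 0.1. As many genes had positive as negative values, 5 each, and their median was -0.10, against 0.02 for all genes. When 1 library was left out, that median ranged from -0.282 (without saline replicate 2) to 0.018 (without Day 3 replicate 2). It was -0.376 with edgeR on counts estimated for Day 3 replicate 1. In limma with all libraries, Atf3 had the smallest P, with a log2 fold change of -1.17 ± 0.57 (adjusted p = 0.636). Ier2 at 0.83 ± 0.44 and Jun at -0.94 ± 0.53 followed (both with an adjusted p of 0.636). Fos, at 0.51 ± 1.04, and Egr1, at -0.63 ± 0.72, differed by less than their errors. The 2 groups did not overlap for 5 genes (Fos, Junb above saline and Jun, Egr1, Atf3 below it), and 47.5% of all genes did not overlap either, a share close to that of these genes. On quantile-normalized values Ier2 joined them (45.6% of genes), and with counts scaled by their totals alone the genes were Jun, Egr1, Egr2 and Atf3 (50.7%), without Fos and Junb. Without saline replicate 2, Jun and Atf3 were called lower at Day 3 and Ier2 and Nr4a1 higher, at a point where 17.9% of all genes were called. In that setting, limma gave Ier2 1.47 ± 0.33 (adjusted p = 0.0514) and Nr4a1 2.33 ± 0.65 (adjusted p = 0.0864), each against the lone saline library, whose spread was assumed to be that of the other groups, and 11.4% of all genes passed an adjusted p of 0.1 there. Without saline replicate 1 instead, Ier2 was 0.18 ± 0.32 and Nr4a1 -0.44 ± 0.61.

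Day 8 was last compared with Day 3. Jun was the 1 gene called, at a log2 fold change of 1.18 ± 0.48 (limma, adjusted p = 0.692), where 4.92% of the tested genes were called and 0% passed an adjusted p of 0.1. All 3 Day 8 libraries were above both Day 3 libraries for Jun, as was so, in either direction, for 31.5% of genes. The call was lost when either Day 3 library, Day 8 replicate 2 or Day 8 replicate 3 was left out. The other genes ranged from -0.03 ± 0.71 (Egr2) to 1.15 ± 0.82 (Fosb), and 9 of the 10 values were positive, with a median of 0.68 against 0.00 for all genes. With edgeR on counts estimated for Day 3 replicate 1, all 10 values were positive with a median of 1.049, Fos was 1.23 ± 0.85 and Fosb 1.86 ± 0.91, and Jun was again the 1 gene called. Without Day 8 replicate 1, Fos, Fosb, Jun, Egr1 and Dusp1 were called, so 5 genes where 5.57% of all genes were called higher. Of these, Fos (1.68 ± 0.31, limma adjusted p = 0.068), Egr1 (1.57 ± 0.34, adjusted p = 0.0984) and Dusp1 (1.54 ± 0.32, adjusted p = 0.0918) also passed an adjusted p of 0.1, as did 2.67% of all genes. With that library counted as Day 3, these 5 genes were called as well, where 5.85% of all genes were called higher. All of them but Fosb then passed the adjusted p of 0.1, which 6.4% of all genes passed. Day 8 against saline and Day 8 against Day 3 share the Day 8 libraries, so the values of these comparisons are not independent.

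Related early-response genes were read from 6 further lists. Of all genes, 2.94% were called at Day 8 against saline, 4.75% at Day 3 against saline and 4.92% at Day 8 against Day 3. Among 9 other AP-1 and MAF factors none was called in any comparison. At Day 8 against saline Maff had the smallest P of these factors (0.90 ± 0.49, edgeR adjusted p = 0.956). Among 10 other EGR, NR4A and KLF factors, Klf2, a factor of endothelial cells under flow, was called higher at Day 8 than at Day 3 (1.31 ± 0.50, limma adjusted p = 0.692). Its levels were 57.5 and 34.1 CPM in saline, 25.3 and 33.0 at Day 3, and 35.0, 94.5 and 107 at Day 8, so that the order of the 7 libraries was that of Jun. Egr3 was called lower at Day 3 than in saline (-2.66 ± 1.11, limma adjusted p = 0.636), and it had at most 2.09 CPM in any library and 0 counts in Day 3 replicate 2. Nr4a2, a sister of Nr4a1, had the smallest P of this list at Day 8 against saline and went the other way, at -0.68 ± 0.34, without a call.

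Of 13 MAP kinase phosphatases and Sprouty inhibitors, 11 were tested at Day 8 against saline. Dusp2 alone was called, at 1.01 ± 0.35 (edgeR adjusted p = 0.956), where 2.94% of all genes were called. It had 7.97 and 10.3 CPM in saline and 14.2, 18.3 and 22.7 at Day 8. For Dusp2, unlike Dusp1, Day 8 replicate 1 lay above both saline libraries. Dusp4 was called lower at Day 8 than at Day 3 (-2.66 ± 0.96, limma adjusted p = 0.692), where 4.92% of all genes were called. It did not exceed 0.828 CPM in any library. None of the 10 genes of mRNA decay and NF-kB feedback was called in any comparison, where 2.94% to 4.92% of all genes were called. The nearest was Zfp36, which encodes the protein that marks AU-rich transcripts such as that of Fos for decay, at 1.21 ± 0.52 for Day 8 against saline (edgeR adjusted p = 0.956). It had 6.87 and 7.62 CPM in saline and 7.81, 17.2 and 25.1 at Day 8, and the 2 highest libraries were again Day 8 replicates 2 and 3. Among 17 upstream kinases and factors, Elk4, an SRF partner, was called lower at Day 8 than in saline (-1.69 ± 0.69, edgeR adjusted p = 0.956) and than at Day 3 (-1.93 ± 0.53, limma adjusted p = 0.672). Its level was between 0.414 and 0.933 CPM at Day 8 and between 2.21 and 3.10 CPM elsewhere.

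The list of 21 secreted and structural effectors held 3 called higher and 1 called lower at Day 8 against saline, where 2.94% of all genes were called. Higher were Errfi1, a feedback inhibitor of the EGF receptor (2.12 ± 0.76, edgeR adjusted p = 0.956), Gadd45a, a growth arrest gene (1.42 ± 0.55, adjusted p = 0.956), and Ier3 (1.10 ± 0.29, adjusted p = 0.956). Errfi1 had 12.6 and 10.5 CPM in saline, 13.3 and 15.0 at Day 3, and 11.1, 64.5 and 75.5 at Day 8, so that it was high in the same pair of libraries as Fos. Thbs1, which encodes the matrix protein thrombospondin 1, was called lower at Day 8 (-1.78 ± 0.33, edgeR adjusted p = 0.956) and at Day 3 (-1.49 ± 0.39, limma adjusted p = 0.636) than in saline. It had 78.5 and 41.6 CPM in saline, and the CXCL12 libraries lay between 15.7 and 26.4 CPM, below both. Between Day 8 and Day 3, Plk2 (-1.74 ± 0.44, limma adjusted p = 0.65) and Hbegf, a ligand of the EGF receptor (-1.35 ± 0.45, adjusted p = 0.692), were called lower at Day 8. Plk2 had also been called higher at Day 3 than in saline (1.38 ± 0.48, limma adjusted p = 0.636), and at Day 8 against saline it was at -0.49 ± 0.48 without a call. Ier5 was called lower at Day 3 than in saline (-1.14 ± 0.42, limma adjusted p = 0.636). The matricellular genes Ctgf and Cyr61, chosen here after their values were seen, were high in that pair as well. Ctgf had 12.5, 87.1 and 170 CPM in Day 8 replicates 1, 2 and 3 and 11.2 to 31.7 CPM elsewhere. Cyr61 had 2.10, 19.6 and 29.8 CPM, with 6.38 to 9.83 CPM elsewhere.

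**Figure D3:**
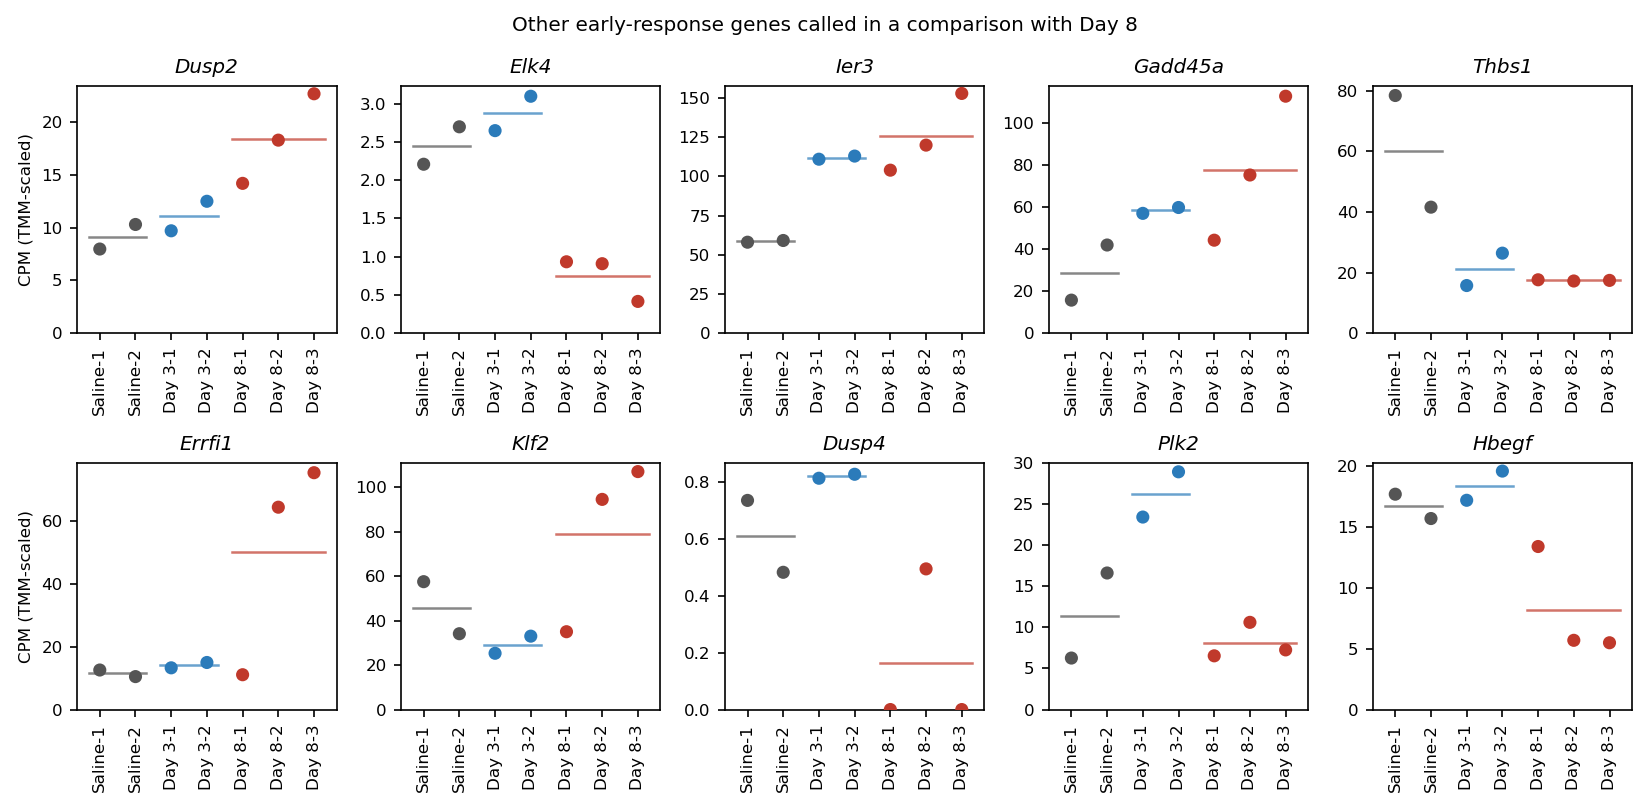
Level of the 10 genes of the related early-response lists that were called in a comparison with Day 8 (vertical axis, TMM-scaled CPM from 0, with its own range in each panel; horizontal axis, library as group and replicate). Points are libraries and horizontal lines are group means. Errfi1 and Klf2 are high in Day 8 replicates 2 and 3 (64.5 and 75.5 CPM for Errfi1), whereas Thbs1 is high in both saline libraries (78.5 and 41.6 CPM).

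Markers of the cell types in the tissue also differed between the libraries in which the immediate early genes stood apart. In bulk tissue, fewer cells of a type and less RNA per cell cannot be told apart. The 5 smooth muscle markers, of which Acta2 was the most abundant, summed to 1770 CPM in Day 8 replicate 1 and to 3840 and 3540 CPM in replicates 2 and 3, with 2150 and 1420 CPM in saline and 2800 and 3180 CPM at Day 3. The 5 endothelium markers, led by Pecam1, summed to 136, 248 and 259 CPM at Day 8, 197 and 144 CPM in saline, and 160 and 177 CPM at Day 3. All markers of both lists were above 0 in each library, and the endothelial sum, like Fos, was lowest in Day 8 replicate 1 and highest in replicates 2 and 3. Of the smooth muscle markers, Actg2 (1.39 ± 0.42, edgeR adjusted p = 0.956) and Des (1.19 ± 0.49, adjusted p = 0.956) were called higher at Day 8 than in saline. In that comparison 2.94% of all genes were called. Actg2 was also called higher at Day 3 than in saline (1.54 ± 0.41, limma adjusted p = 0.636), where 4.75% of all genes were called. The 5 stroma markers, led by Dcn, summed to 7780 and 8620 CPM in saline, 11500 and 12200 CPM at Day 3, and 7540, 11800 and 13800 CPM at Day 8, with Day 8 replicate 1 again the lowest. The 5 epithelium markers, led by Krt19, ran the other way within Day 8, at 1000, 413 and 737 CPM in replicates 1, 2 and 3, with 607 and 847 CPM in saline and 933 and 893 CPM at Day 3. The part of these cell types in the levels of the immediate early genes was not tested.

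Ovary markers summed to 1210 CPM in Day 8 replicate 2 and to 9.32 CPM in Day 8 replicate 3. Their sums were 79.7 and 254 CPM in saline, 5.24 and 7.35 CPM at Day 3, and 28.7 CPM in Day 8 replicate 1. Over the 7 libraries Cyp11a1 was the most abundant of them, with 763 CPM in Day 8 replicate 2. It had 0.104 CPM in Day 8 replicate 3 and at most 0.621 CPM at Day 3. The defining marker Amh had 0 counts in every library but saline replicate 1. At Day 3 against saline, Cyp11a1 (-7.27 ± 3.05, limma adjusted p = 0.636) and Inha (-6.42 ± 2.15, adjusted p = 0.636) were called lower. Adipocyte markers, led by Fabp4, summed to 379 and 1780 CPM in saline, 1760 and 216 CPM at Day 3, and 156, 213 and 150 CPM at Day 8, so they were low in all 3 Day 8 libraries alike. At Day 8 against saline, 4 of these 5 markers were called lower (2.94% of all genes were called), Adipoq with the smallest P (-2.69 ± 0.43, edgeR adjusted p = 0.956). Leukocyte markers, led by Csf1r, summed to 284 and 150 CPM in saline, 87.6 and 87.0 CPM at Day 3, and 66.1, 118 and 154 CPM at Day 8, with the T cell marker Cd3e at 0 in 4 libraries. Cd68 was called lower at Day 8 (-1.36 ± 0.33, edgeR adjusted p = 0.956) and at Day 3 (-1.59 ± 0.35, limma adjusted p = 0.636) than in saline, and Csf1r at Day 3 (-1.52 ± 0.58, limma adjusted p = 0.636). The 5 neutrophil markers summed to 131 and 199 CPM in saline, 147 and 137 CPM at Day 3, and 110, 143 and 174 CPM at Day 8, so that the sums overlapped. Retnlg, the most abundant of them over the 7 libraries, had positive values without a call, at 0.89 ± 0.35 at Day 8 (edgeR adjusted p = 0.956) and 0.81 ± 0.34 at Day 3 (limma adjusted p = 0.636). S100a8, S100a9 and Cxcr2 were called lower than in saline at Day 8, where 4 markers were tested, and at Day 3, where 5 were, with S100a9 at -2.79 ± 0.41 at Day 8 (edgeR adjusted p = 0.956) and -2.73 ± 0.49 at Day 3 (limma adjusted p = 0.636). The leukocyte sum ranked the 3 Day 8 libraries as Fos did and was highest in saline replicate 1, where Fos had 5.89 CPM. The part of ovarian tissue, adipocytes, leukocytes and neutrophils in the level of Fos was not tested. Of the epithelium, stroma, endothelium and 5 oviduct markers none was called in any comparison, and 3 of the 5 red cell markers were called higher at Day 3 than in saline, where 4.75% of all genes were called, Hbb-bt with the smallest P (1.60 ± 0.63, limma adjusted p = 0.636). Among the 8 uterus markers, Msx1 was called lower at Day 3 than in saline (-1.48 ± 0.42, limma adjusted p = 0.636) and higher at Day 8 than at Day 3 (1.89 ± 0.39, adjusted p = 0.596).

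Genes that answer to the ovarian hormones and to cell stress were read beside the immediate early genes, since oestrogen and cell stress are inducers of this family. Of the progesterone-induced uterine genes, 10 of 10 had positive values at Day 8 against Day 3 and 4 were called (4.92% of all genes were called in that comparison), Ihh, an epithelial signal to the stroma, with the smallest P (3.65 ± 0.71, limma adjusted p = 0.582). At Day 8 against saline, 2 of the 10 were called higher (2.94% of all genes were called), Il13ra2 with the smallest P (3.49 ± 0.81, edgeR adjusted p = 0.956), and Ihh was at 1.01 ± 0.61 without a call. At Day 3 against saline, where 4.75% of all genes were called, 3 of the 10 values were positive, with a median of -0.77. There Ihh (-2.72 ± 0.78, limma adjusted p = 0.636) and Ptch1 (-3.01 ± 0.92, adjusted p = 0.636) were called lower and Il13ra2 (1.98 ± 0.79, adjusted p = 0.636) higher. The median of this list, centred as above, was 0.07, 1.08 and 0.77 in Day 8 replicates 1, 2 and 3, and thus highest in the libraries with the most Fos. Of 9 measured oestrogen-induced genes, 1 was called higher and 4 lower at Day 8 against Day 3, against the same 4.92%, Sprr2f with the smallest P (-5.23 ± 1.23, limma adjusted p = 0.65). The list's median was -0.06, -0.46 and -0.88 in Day 8 replicates 1, 2 and 3, while its sum was 1140, 1160 and 1430 CPM. Igf1, its most abundant gene, had 325, 715 and 856 CPM there, 295 and 596 in saline, and 970 and 969 at Day 3. At Day 8 against saline, Gpx2 (2.67 ± 0.85, edgeR adjusted p = 0.956) was called higher and Ltf (-1.93 ± 0.65, adjusted p = 0.956) lower. At Day 3 against saline, 6 of the 9 values were positive, with a median of 0.66, and none was called. None of the 10 heat shock genes was called in any comparison, and Hspb1 had the smallest P at Day 8 against saline (0.68 ± 0.29, edgeR adjusted p = 0.956). Hspa1a, an inducible chaperone gene picked out after its values were seen, had 11.7 and 7.62 CPM in saline, 10.7 and 10.7 CPM at Day 3, and 6.42, 19.6 and 30.0 CPM at Day 8, with the same libraries at both ends as Fos. Hsp90aa1, the most abundant gene of the list, ran the other way, at 1140 and 940 CPM in Day 8 replicates 2 and 3 and 1290 to 1900 CPM elsewhere, and the list's sum was 3160, 2710 and 2530 CPM in Day 8 replicates 1, 2 and 3, while its centred median was -0.09, 0.18 and 0.15. The part of hormones and of stress in the levels of the immediate early genes was not tested.

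**Figure D4:**
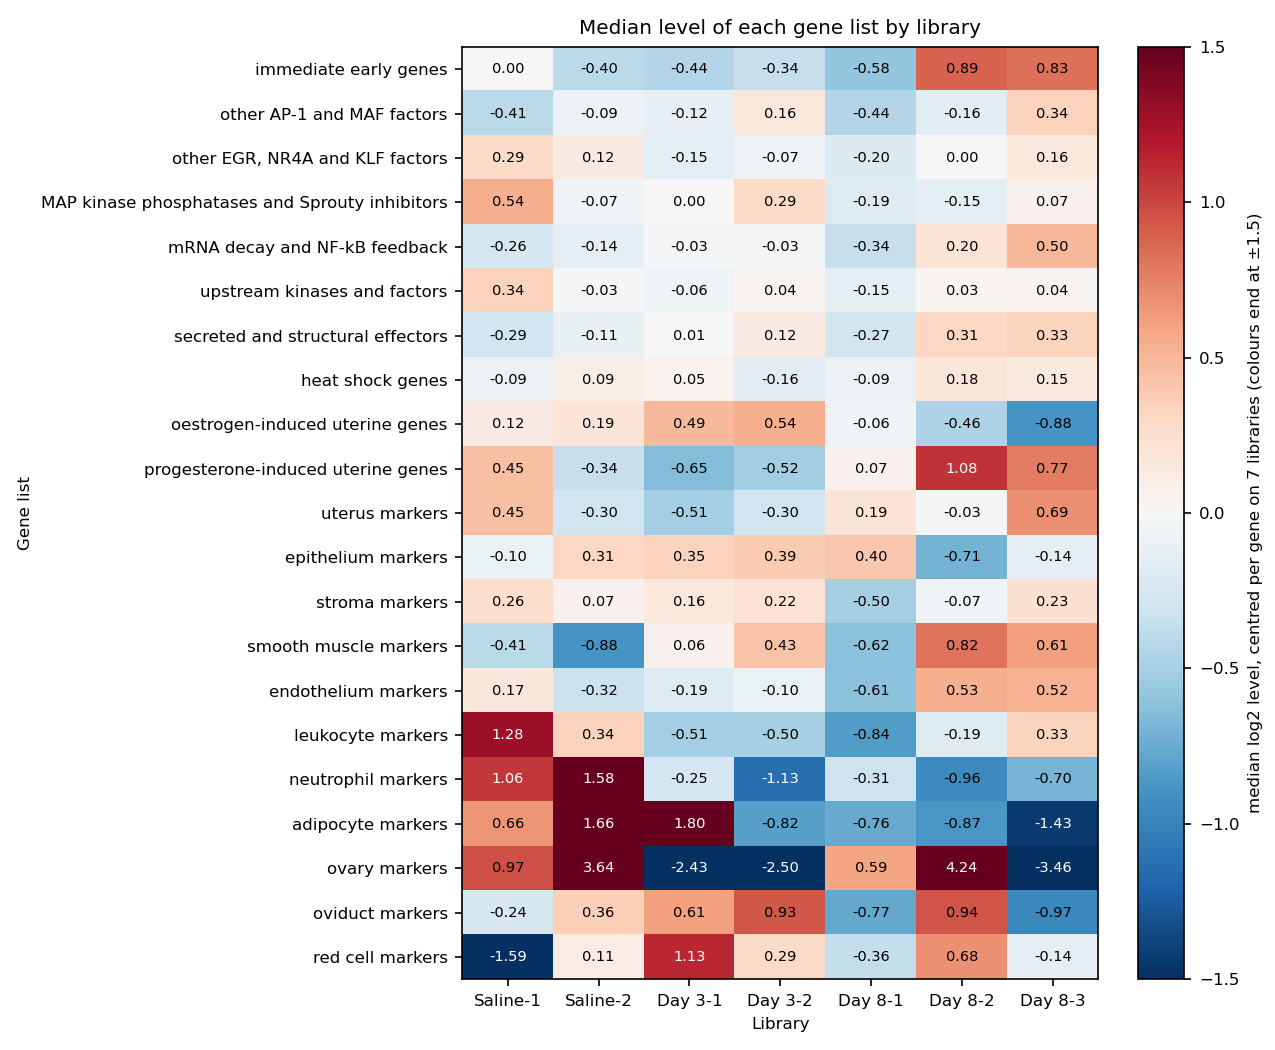
Median log2 level of each gene list in each library, every gene centred on its own mean over the 7 libraries (rows, lists; columns, libraries as group and replicate; colours end at 1.5 in either direction, with the value printed in each cell). The immediate early genes are at 0.89 and 0.83 in Day 8 replicates 2 and 3 and at -0.58 in Day 8 replicate 1, and smooth muscle, endothelium and progesterone-induced genes are also highest in that pair.

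The genes whose levels were most like the mean of the 10 genes over the 7 libraries were sought among 4104 well-expressed and variable genes. They were Gm1987 (Pearson r = 0.996) and Ccl21a (r = 0.995), near-identical copies of a chemokine gene of lymphatic endothelium that can share reads and were not told apart, Mettl7a1 (r = 0.985), the fibroblast protease gene Fap (r = 0.985) and Gm13889 (r = 0.984). Ccl21a had 130 and 121 CPM in saline, 128 and 131 CPM at Day 3, and 91.6, 257 and 274 CPM at Day 8. Fap had 7.36 and 6.76 CPM in saline, 5.82 and 8.17 CPM at Day 3, and 3.97, 16.0 and 18.8 CPM at Day 8. Both were lowest in Day 8 replicate 1 and highest in replicates 2 and 3. Over the 5 libraries other than that pair, r ranged from 0.893 (Gm13889) to 0.971 (Fap). These are the highest values among many genes over few libraries and are given as a description.

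Reads near the 3′ end decide the counts, so the last 500 bases of each gene's longest coding transcript were examined. No word of 50 bases there was shared with another gene for any of the 10 genes (0 of 451 words each). Other annotated genes overlap Jun (Junos), Junb (Prdx2), Atf3 (Gm24748) and Dusp1 (Ergic1 among 4 genes), mostly on the opposite strand, and the sources used here do not state whether strand was used in counting, so reads of these partners could not be told apart from those of the 4 genes. The letters ATTTA, the core of the AU-rich elements that shorten the life of a transcript, occurred 4 times in the last 500 bases of Fos and 3 times in those of Jun and Nr4a1. They occurred at least once in 8 of the 10 genes, Fosb and Ier2 being without, and in 50.8% of 21877 coding genes. Fosb, which had none, and Fos, which had 4, were high in the same 2 libraries. The part of transcript life in the levels of these genes was not tested.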

How the data were processed

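Total RNA of uterine tissue was made into 7 QuantSeq 3′ mRNA libraries, 2 from saline horns, 2 from CXCL12 horns at Day 3 and 3 at Day 8. Per the study's methods, Bowtie2 was the aligner, coverage in Bedtools gave the reads of each gene (multiple alignments included), and quantile normalization in edgeR followed; the submitters' processing notes name the builds hg19 and mm10 without a role, and versions and annotation are not given in the sources used here. The tables deposited for 6 libraries hold raw read counts per gene symbol. The table deposited for Day 3 replicate 1 holds log2(normalized count + 1). Of its 3661 low values between 0.5 and 20, 97.2% came within 0.1 of a whole number after division by 1.0515 (20% by spacing alone). Counts for this library were estimated in that way for the TMM factors, the floor of detection and 1 alternative. Its CPM levels were taken from the normalized counts and their total of 11003222. All 7 tables list the same 23282 rows, and 35 symbols stand on more than one row. No column of per-sample values was left out.

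The members and the gene lists were chosen with earlier results of these data known. The text could name all 10 members, the member of each other list with the smallest P, the 5 genes most like the members' mean and the most abundant marker of each list. Genes called within the other lists were named besides, after their values were seen.

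The 6 count libraries were fitted with edgeR 4.0.16 (quasi-likelihood test, TMM, filterByExpr, 15388 genes) for Day 8 against saline. The comparisons with Day 3 used limma 3.58.1 (eBayes with a trend, 16540 genes with a mean of at least 1) on quantile-normalized log2(normalized count + 1) values, a scale that understates the change of low genes. A call needed a fold change of at least 2 with P below 0.05 before adjustment, and a stricter call also a Benjamini-Hochberg adjusted p of 0.1. The tests were divided in this way because of the log2 table. The standard error of an edgeR value is the change divided by the root of the F statistic. Totals of 6908790 to 12308982 counts set the precision of single levels, and Poisson intervals and floors cover counting error only. The common biological coefficient of variation was 42.2%. DESeq2 1.42.0 and R 4.3.3 were used for alternatives. Promoters came from RefSeq (GRCm38.p6) and transcripts from GENCODE M21.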

Additional observations from a re-analysis of the deposited data

How the results depend on the processing

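Of 427 refits of single immediate early genes, 373 kept both the direction and the side of the call, 26 gained a call, 6 lost one and 22 changed sign. No gene changed sign with a call. Day 8 against saline called 453 genes and 0 of the 10 members. DESeq2 called 576 of 18837 genes and 1 member (Fos, adjusted p = 1), and passed 49 genes at the adjusted p. For this comparison limma on quantile-normalized values called 647 of 16540 genes and 1 member (Ier2), and with Day 8 replicate 1 counted with Day 3 there were 1095 genes called, 58 at the adjusted p, and 4 members. Leaving out 1 library gave 229 to 1527 genes, 0 to 15 at the adjusted p, 0 to 4 members and a members' median of 0.486 to 1.01.

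Day 3 against saline called 786 genes and 0 members. Without quantile normalization it called 1200 genes and 1 member; that setting moved the median of all genes to -0.277 and that of the members to -0.546. Estimated counts with edgeR called 1 member, and no filter passed 36 genes at the adjusted p. Leaving out 1 library gave 300 to 2957 genes, 0 to 1873 at the adjusted p and 0 to 4 members. Day 8 against Day 3 called 814 genes and 1 member. No filter gave 28 genes at the adjusted p and 0 members, the 2 groups alone gave 3 genes at the adjusted p, and Day 8 replicate 1 counted with Day 3 gave 1968 genes, 1058 at the adjusted p, and 5 members. Leaving out 1 library gave 341 to 1857 genes, 0 to 444 at the adjusted p, 0 to 5 members, and a members' median of 0.347 to 1.286.

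The groups share replicate numbers, and the labels do not say whether these pair the samples. Saline and CXCL12 went into opposite horns, so libraries of different groups could come from 1 animal. Correlations of the deviations of same-numbered libraries ran from -0.134 to -0.008. In groups this small, deviations from the group mean are bound to each other, so these values cannot show whether the samples are paired. The main fits left the numbers out. With the replicate number as a block, Day 8 against saline called 156 genes and 0 members (median 0.343), Day 3 against saline 676 and 0, and Day 8 against Day 3 522 and 0, and the block moved Fos to 0.33 and turned Egr1 to -0.14 at Day 8 against saline and Fos to -0.16 at Day 8 against Day 3.

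The other changes of sign follow, on the log2 scale. At Day 8 against saline, leaving out 1 library gave Jun -0.20 (without saline replicate 2) to 0.99, Egr2 -0.78 to 0.20 (without Day 8 replicate 1; 0.05 without saline replicate 2) and Atf3 -0.91 to 0.29 (without saline replicate 1), and Egr2 was 0.20 with Day 8 replicate 1 counted as Day 3. At Day 3 against saline, Fosb was -0.53 without quantile normalization and -0.41 with estimated counts. Leaving out 1 library gave Fosb -0.46 (without saline replicate 2; -0.04 without Day 3 replicate 2) to 0.57, Egr2 -0.70 to 0.07 (without Day 3 replicate 2), Nr4a1 -0.44 (without saline replicate 1) to 2.33, and Dusp1 -0.63 to 0.11 (without saline replicate 1). With Day 8 replicate 1 counted as Day 3, Fosb was -0.04 and Fos -0.08. At Day 8 against Day 3, leaving out 1 library gave Fos -0.15 (without Day 8 replicate 3) to 1.68 and Egr2 -0.42 to 0.54 (without Day 8 replicate 1; 0.36 without Day 3 replicate 1). Egr2 was 0.12 without quantile normalization, 0.36 with estimated counts and 0.94 with Day 8 replicate 1 counted as Day 3. The cause of these changes was not tested. Egr2, Fosb and Nr4a1 have between 4 and 90 counts per count library, which limits the precision of their levels.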
